A study of Homo sapiens with 6 samples.

Results

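The histone genes of the histone clusters were taken as every gene symbol in the deposited tables of U2932 cells that starts with HIST1H, HIST2H, HIST3H or HIST4H. They numbered 65 of 20667 symbols and comprised 6 H1, 15 H2A, 19 H2B, 12 H3 and 13 H4 genes. The HIST1 cluster held 53 of them, HIST2 held 8, HIST3 held 3 and HIST4 held 1. Matched through their older symbols, 61 were found in the GENCODE annotation of GRCh37 (hg19), of which 50 HIST1 genes lay on chromosome 6 between 25732725 and 27861669, 7 HIST2 and 3 HIST3 genes on chromosome 1, and HIST4H4 on chromosome 12. No position was found for HIST1H2BF, HIST1H2BG, HIST1H4F and HIST2H2BA.

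U2932 is a cell line from a diffuse large B-cell lymphoma of the activated B-cell type (ABC-DLBCL), and ROCK2 is a serine-threonine kinase activated by RhoA. The 3 ROCK2 KD libraries came from U2932 cells infected with a lentivirus that expresses a ROCK2 shRNA, and the 3 Scr shRNA libraries from U2932 cells infected with a scrambled shRNA. Both constructs were in pLKO.1 with puromycin resistance and tGFP, so the controls also carried the vector, its selection marker and its reporter, and both groups were grown in Iscove's DMEM with FBS. The labels number the libraries of each group 1, 2 and 3 and do not say whether a number stands for a separate infection, culture or sequencing run, so the spread between libraries may be in part technical. Whether a line was 1 clone or a mixed population was not given in the sources used here. All values are FPKM, a level corrected for the length of the transcript and for the number of mapped fragments. FPKM do not give the number of reads behind a value, so no counting interval could be attached to them.

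ROCK2 itself stood at 2.75, 5.35 and 1.26 FPKM in ROCK2 KD replicates 1, 2 and 3 and at 4.32, 7.21 and 5.78 in the Scr shRNA libraries of the same numbers. It was lower in the ROCK2 KD library of every pair, and its fitted difference was -0.82 ± 0.23 (SE, n = 3 pairs) on the log2(scaled FPKM + 1) scale with an adjusted p of 0.799 in limma. The B cell markers CD79A and CD79B stood at 160 to 458 and 57.0 to 538 FPKM. The 5 T cell markers stood at 0 to 0.758 FPKM (highest for CD3E) and the 5 myeloid markers at 0 to 0.628 (highest for CD14), with CD2 and FCGR3A listed at 0 in all 6. The FPKM of a library summed to 208289 and 217309 in replicate 1 and to between 438262 and 480612 in replicates 2 and 3. Each library was therefore divided by a scaling factor from trimmed log ratios to the other libraries, with factors of 0.789 to 0.792 for replicate 1 and 1.08 to 1.16 for the others, and each difference below is one of log2(scaled FPKM + 1), a scale on which changes of genes near or under 1 FPKM come out too small.

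Core histones H2A, H2B, H3 and H4 form the nucleosome around which DNA is wound, and linker histone H1 binds the DNA where it enters and leaves. The clustered genes are transcribed mainly in S phase, when new DNA has to be packed, under NPAT and cyclin E-CDK2. Most of their mRNAs have no poly(A) tail and end just after a conserved stem-loop, which SLBP binds and which directs cleavage with the U7 snRNP, whereas some of the genes also give longer, polyadenylated transcripts. RNA-seq libraries that select poly(A) tails hold little of the stem-loop mRNAs. The molecule was labelled total RNA, and whether poly(A) RNA was selected for these Nextera libraries was not given in the sources used here.

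The stem-loop was read from the GRCh37 genome as a 6-base arm that starts with GG, a 4-base loop and the reverse complement of the arm, within 100 bases after an annotated stop codon. Of the 59 genes with such a stop codon, 57 held it, 23 to 63 bases after the stop codon (median 36). HIST1H2AG and HIST1H2AK did not. These 5 are shown on the sense strand with 5 bases on either side, the stem-loop in capitals, because they carry the 4 commonest forms and belong to genes described below. HIST2H4B, the most abundant H4 gene, is left out because every 50-base window of its shortest annotated transcript occurs elsewhere in the genome.
HIST1H2BK: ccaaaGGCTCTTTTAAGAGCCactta
HIST1H1C: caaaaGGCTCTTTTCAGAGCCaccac
HIST1H3H: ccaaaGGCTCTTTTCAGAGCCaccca
HIST1H4H: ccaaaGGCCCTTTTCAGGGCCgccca
HIST1H4I: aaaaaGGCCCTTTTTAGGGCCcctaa
The capitals lay at chr6:27114145-27114160 (minus strand), chr6:26055972-26055987 (minus strand), chr6:27778294-27778309 (plus strand), chr6:26285359-26285374 (minus strand) and chr6:27107433-27107448 (plus strand), in that order. All 12 H4 genes with a stem-loop had the arm GGCCCT, and all 45 others the arm GGCTCT. The form of HIST1H1C and HIST1H3H occurred in 33 genes of the H1, H2A, H2B and H3 classes, that of HIST1H2BK in 9, that of HIST1H4H in 8 and that of HIST1H4I in 3, and the other 4 forms in 1 gene each.

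The annotation divided the 61 matched genes into 16 with a long or spliced transcript (over 1000 bases or more than 1 exon) and 45 with only short single-exon transcripts. The short transcripts with a stem-loop, 41 in number, ended 1 to 11 bases after it, and 15 of the 16 long or spliced genes had an annotated end more than 100 bases beyond it. AATAAA, the signal for polyadenylation, occurred in the last 50 bases of an annotated transcript in 12 of the 16 long or spliced genes and in 2 of the 45 short ones.

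Histone genes were mostly low in these libraries. Of the 65, 4 were listed at 0 in all libraries (HIST1H1A, HIST1H1T, HIST1H2APS1 and HIST3H3), 35 had a mean below 1 FPKM, 27 lay between 1 and 10, and 3 were higher. Their median mean was 0.918 FPKM, against 1.20 for all 20667 symbols. HIST1H2BK, an H2B gene, had a mean of 109 FPKM and took 44.4% of the summed FPKM of the 65 genes. HIST1H1C, which encodes the linker histone H1.2, followed with 49.97 FPKM (20.4%), and the H2B gene HIST1H2BD with 10.5 FPKM (4.28%). Next to HIST1H3H, the H3 class was led by HIST1H3B, with 0.342, 0.330 and 3.49 FPKM in ROCK2 KD and 0.220, 0.738 and 2.37 in Scr shRNA. The pair of leading genes was annotated with short stem-loop transcripts of 495 and 731 bases, but 6 of the 8 most abundant genes had a long or spliced transcript. The median mean of the long or spliced genes was 1.79 FPKM (range 0.132 to 10.5) and that of the short ones 0.727 FPKM (range 0 to 109). Which transcript form the reads came from was not tested, since the tables give 1 value per gene.

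**Figure D1:**
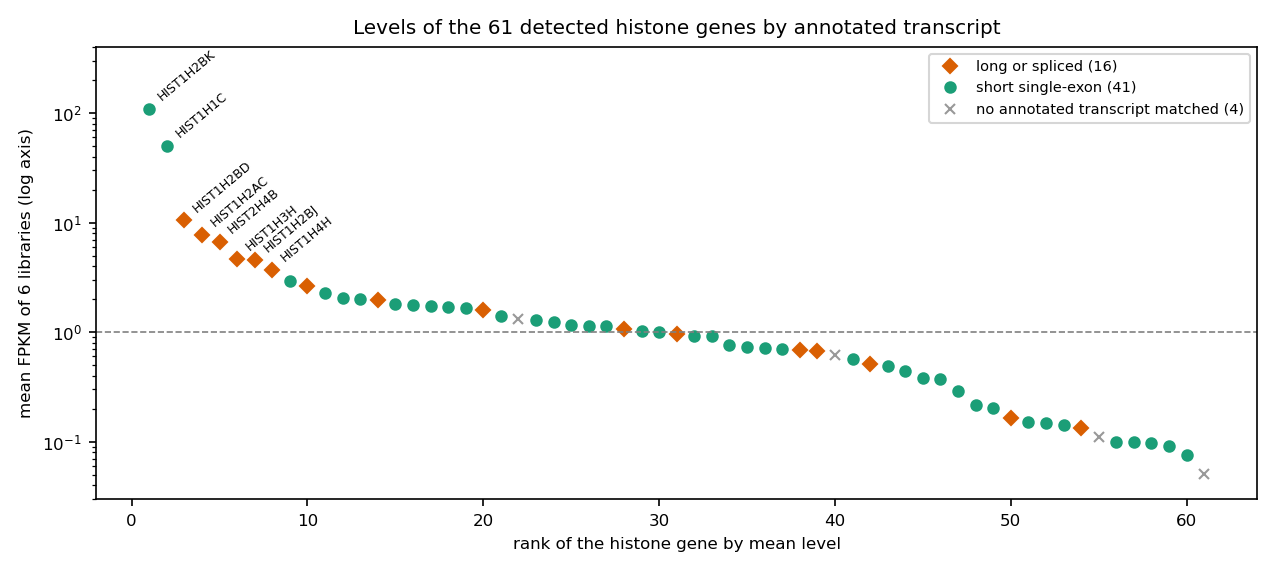
Mean FPKM of the 6 libraries on a log axis for the 61 histone genes above 0, ranked from highest to lowest, with diamonds for genes annotated with a long or spliced transcript, circles for short single-exon genes and crosses for genes without a matched transcript. HIST1H2BK (109 FPKM) and HIST1H1C (49.97 FPKM) stand apart, and 6 of the first 8 genes are diamonds. The dashed line marks 1 FPKM.

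Near-identical copies limit some of these values. Windows of 50 bases were taken from the shortest annotated transcript of each gene, and longer transcripts were not searched. In 7 genes more than 50% of these windows occur elsewhere on chromosomes 1, 6 or 12 (HIST1H2AI, HIST1H2AJ, HIST1H4J, HIST1H4K, HIST2H2BC, HIST2H3D and HIST2H4B), so that reads could be split between copies or discarded, and their levels are uncertain. HIST1H4J and HIST1H4K share 92.1% and 92.6% of their windows. HIST1H4J stood at 0.746, 0.557 and 3.14 FPKM in ROCK2 KD and at 0.534, 0.390 and 5.08 in Scr shRNA. HIST1H4K stood at 0.754, 0.376 and 3.17 FPKM in ROCK2 KD and at 0.540, 0.553 and 5.14 in Scr shRNA. In 32 genes no window occurred elsewhere, HIST1H1C, HIST1H3H and HIST1H4H among them. Annotated genes overlap 28 of the 61, and HIST1H2AM and HIST1H3J overlap on the same strand. For overlaps of opposite strands no strand setting was given in the sources used here, so reads of such genes cannot be told apart.

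Only 22 of the 65 genes (33.8%) reached 1 FPKM in 3 or more libraries and were tested, against 50.9% of all symbols. They were 1 H1, 6 H2A, 9 H2B, 3 H3 and 3 H4 genes. Of these, 10 reached 1 FPKM in every library, 6 passed with exactly 3 libraries, and 9 lay below 1 FPKM in both libraries of replicate 1. The number of histone genes at 1 FPKM or more was 11, 15 and 40 in ROCK2 KD replicates 1, 2 and 3 and 13, 22 and 40 in Scr shRNA. Counts over the tested genes therefore rest in part on the libraries of replicate 3, and counts over all genes above 0 are given beside them.

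**Figure D2:**
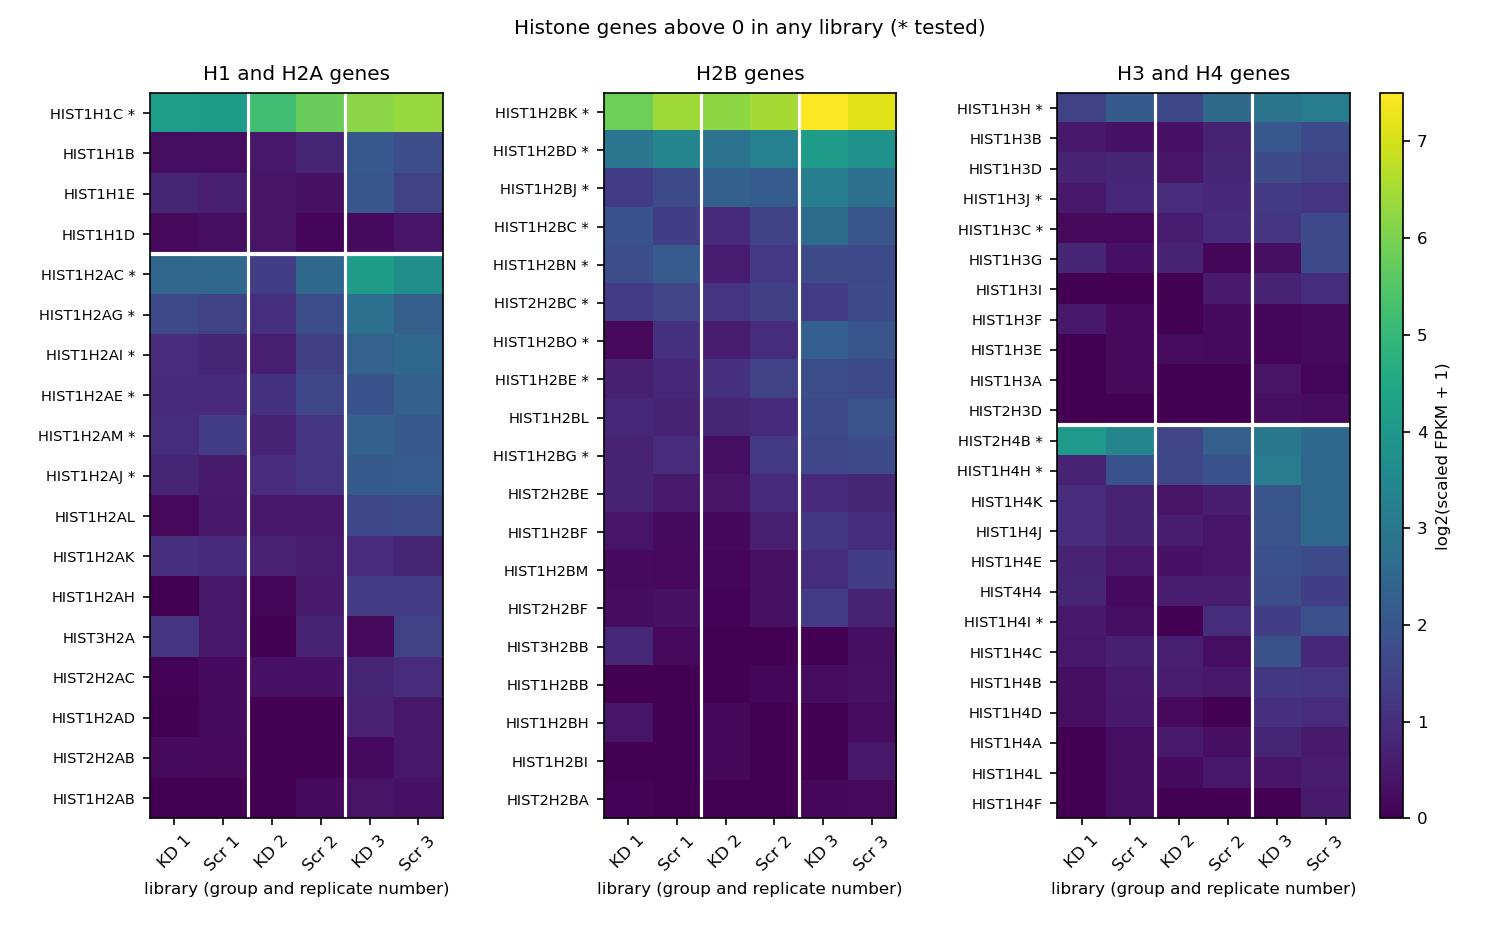
Levels of the 61 histone genes above 0 as log2(scaled FPKM + 1) in each of the 6 libraries, grouped by histone class and ordered by mean level, with the tested genes marked by an asterisk and white lines between replicate numbers. The libraries of replicate 3 are the brightest for most genes, while HIST2H4B is brightest in replicate 1.

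ROCK2 KD was compared with Scr shRNA to ask whether lower ROCK2 was accompanied by a change of the histone mRNAs. No histone gene differed at an adjusted p under 0.05 (0 of 22 tested), where the background over all 10526 genes tested was 0.0% (0 genes). At an unadjusted p under 0.05, 3 histone genes were lower and 0 higher, against 2.4% of all genes tested lower and 3.07% higher. The fitted difference was below 0 for 19 of the 22 genes and above 0 for 3, with a median of -0.25, against -0.01 over all genes tested. Without the filter, 42 of the 61 genes above 0 had a fitted difference below 0 and 19 above, with a median of -0.07. With a pseudocount of 0.1 in place of 1 the medians were -0.39 over the 22 genes and -0.22 over the 61. In bulk RNA, a smaller share of cells in S phase and less histone mRNA per cell cannot be told apart. Leaving out replicate 1, 2 or 3 in turn gave 0 histone genes with an adjusted p under 0.05 and moved the median of the 22 to -0.14, -0.10 and -0.31. ComBat on the replicate number followed by limma without the block called 294 of all 10526 genes. Among them were 2 of the 22 histone genes, HIST1H3H with an adjusted p of 0.0435 and HIST2H2BC with 0.0308, both lower. That fit takes no account of the replicate differences already removed, so its p-values come out too small. It had 2132 genes at an unadjusted p under 0.05, against 576 with the block.

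The 3 pairs did not move alike. Over the 22 tested genes the median of ROCK2 KD minus Scr shRNA was -0.22 in replicate 1, -0.48 in replicate 2 and 0.13 in replicate 3. Over the 61 genes above 0, 28 were lower and 28 higher in replicate 1, 41 lower and 14 higher in replicate 2, and 29 lower and 32 higher in replicate 3, the rest being equal. The summed scaled FPKM of the 65 genes was 132 in ROCK2 KD and 162 in Scr shRNA of replicate 1, 147 and 204 in replicate 2, and 399 and 359 in replicate 3. ROCK2 KD thus lay at 0.818 and 0.721 of Scr shRNA in replicates 1 and 2 and at 1.11 in replicate 3. Without HIST1H2BK and HIST1H1C it lay at 0.977, 0.610 and 1.10. In replicate 1 HIST1H2BK differed by -0.58 and HIST1H1C by 0.03 on the log2 scale, so the 0.818 rested mainly on HIST1H2BK. Tested genes lower in all 3 pairs numbered 3 of 22, against 12.4% of all genes tested, and 0 were higher in all 3, against 12.7%. Of the 61 genes above 0, 6 were lower in all 3 pairs, against 10.7% of all genes above 0, and 2 were higher, against 10.5%.

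**Figure D3:**
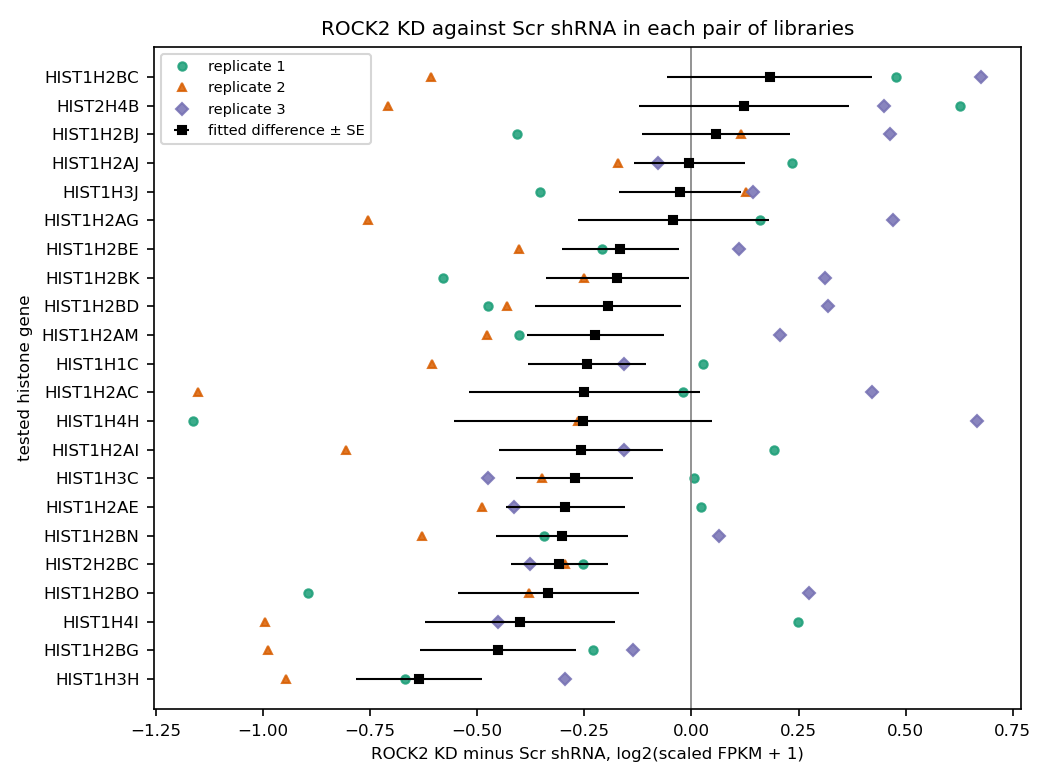
ROCK2 KD minus Scr shRNA on the log2(scaled FPKM + 1) scale for the 22 tested histone genes, with a symbol for each pair of libraries and black squares for the fitted difference ± SE (n = 3 pairs). The symbols of HIST1H3H, HIST1H2BG and HIST2H2BC lie left of 0 in all 3 pairs, and no gene lies right of 0 in all 3.

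HIST1H3H, an H3 gene, was the most abundant H3 gene and had the largest fall of the tested members. It stood at 1.37, 2.41 and 7.13 FPKM in ROCK2 KD replicates 1, 2 and 3 and at 2.63, 5.79 and 8.71 in Scr shRNA. Each ROCK2 KD library lay below its partner, although the groups overlapped. The fitted difference was -0.64 ± 0.15 (unadjusted p = 0.00334, adjusted p = 0.752). The H2B gene HIST1H2BG had 0.502, 0.243 and 2.26 FPKM in ROCK2 KD and 0.724, 1.63 and 2.52 in Scr shRNA, with a difference of -0.45 ± 0.18 (adjusted p = 0.895) that was widest in replicate 2. HIST2H2BC, annotated as a pseudogene of the H2B class with 79.7% of its windows found elsewhere, had 1.19, 1.35 and 1.68 FPKM in ROCK2 KD and 1.57, 1.94 and 2.43 in Scr shRNA. Its difference was -0.31 ± 0.11 (adjusted p = 0.875), and its scaled values in ROCK2 KD all lay below those in Scr shRNA. This held for 1 of the 61 histone genes above 0, against 184 of all 18785 genes above 0.

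The leading H1, H2A, H2B and H4 genes gave pairs of mixed direction. HIST1H2BK had 44.7, 85.3 and 198 FPKM in ROCK2 KD and 66.9, 103 and 155 in Scr shRNA, lower in ROCK2 KD in replicates 1 and 2 and higher in replicate 3 (fitted difference -0.17 ± 0.17, adjusted p = 0.976). HIST1H1C had 13.6, 41.0 and 80.8 FPKM in ROCK2 KD and 13.3, 63.9 and 87.3 in Scr shRNA, close together in replicate 1 and lower in ROCK2 KD in the other two (-0.24 ± 0.14, adjusted p = 0.955). HIST1H2AC, an H2A gene, had 3.65, 1.83 and 18.6 FPKM in ROCK2 KD and 3.70, 5.55 and 13.1 in Scr shRNA. Its pairs differed by -0.02, -1.15 and 0.42, so that replicate 2 alone carried the fitted -0.25 ± 0.27 (adjusted p = 0.984). The H4 gene HIST1H4H had 0.510, 2.35 and 9.04 FPKM in ROCK2 KD and 2.11, 3.10 and 5.11 in Scr shRNA, with pairs at -1.16, -0.26 and 0.67 (adjusted p = 0.986). HIST2H4B, the H4 gene with the highest mean, had pairs at 0.63, -0.71 and 0.45 (fitted difference 0.12 ± 0.25, adjusted p = 0.995). Among the 22 tested genes, HIST1H2BC had the largest positive fitted difference, 0.18 ± 0.24 (adjusted p = 0.986), with pairs at 0.48, -0.61 and 0.68. The SE of the 22 genes ranged from 0.11 to 0.30, the same order as the median difference.

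The histone genes were higher in replicate 3 than in the other replicate numbers. Both libraries of replicate 3 lay above both of replicate 2 for 49 of the 61 genes above 0 (against 22.6% of all genes above 0), and above the other 4 libraries for 45 of them (against 13.0%). In the fit with both condition and replicate number, all 22 tested genes were higher in replicate 3 than in replicate 2, by 0.24 to 1.98 and a median of 0.91, against a median of 0.02 over all genes tested. At an adjusted p under 0.05, 8 of the 22 (36.4%) were higher in replicate 3 and 0 lower, where the background was 3.5% of all genes higher and 2.81% lower. Without the filter, 60 of 61 genes had a higher fitted level in replicate 3, the exception being HIST1H3E, and 3 of the 61 were called higher (4.92%), against 0.25% of all 18785 genes above 0. These 3 were HIST2H3D, listed at 0 in 4 libraries, HIST1H4E and HIST1H2AL, none of them among the 22, and none of the 8 was called in that fit (adjusted p = 0.0937 to 0.241). Among genes at 1 FPKM or more in every library, which the filter could not favour through replicate 3, 4 of 10 histone genes were called higher (40%) with a median of 0.91, against 3.49% of 9648 genes with a median of 0.03.

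The 8 called genes were HIST1H1C, the H2A genes HIST1H2AC, HIST1H2AI, HIST1H2AJ and HIST1H2AM, the H2B genes HIST1H2BK and HIST1H2BO, and HIST1H3H. HIST1H2AC had the largest difference of replicate 3 from replicate 2, 1.98 ± 0.33 (SE, n = 2 libraries each, adjusted p = 0.0157), and both of its replicate 3 libraries, at 18.6 and 13.1 FPKM, lay above the others, at 1.83 to 5.55. HIST1H2BK differed by 0.96 ± 0.20 (adjusted p = 0.0385), with 198 and 155 FPKM in replicate 3 against 44.7 to 103 in the other libraries. HIST1H2AJ, with 3.72 and 3.86 FPKM in replicate 3 against 0.370 to 1.36 elsewhere, differed by 1.13 ± 0.16 (adjusted p = 0.00766), and it shares 66.3% of its windows with HIST1H2AI. HIST1H2BO had 4.12 and 3.12 FPKM in replicate 3 and 0.116 to 1.13 in the others (1.31 ± 0.26, adjusted p = 0.0303). The number of called genes depended on single libraries. It fell to 1 without ROCK2 KD replicate 2 (against 0.627% of all genes higher) or without ROCK2 KD replicate 3 (against 1.13%). It rose to 12 without Scr shRNA replicate 2 or 3 (against 3.48% and 2.98%) and to 17 without the ROCK2 KD or the Scr shRNA library of replicate 1 (against 4.96% and 4.94%), while all 22 genes stayed higher in replicate 3 each time. The H4 genes were among those not called: HIST1H4H differed by 1.11 ± 0.37 (adjusted p = 0.134) and HIST1H4I, listed at 0 in ROCK2 KD replicate 2, by 1.10 ± 0.27 (adjusted p = 0.0626).

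Between replicates 2 and 1 the histone genes were divided. Of the 22, 4 were higher in replicate 2 (18.2%, background 38.3%) and 2 lower (9.1%, background 12.3%), with a median of 0.15 against 0.25 over all genes. Against replicate 1, 18 were higher in replicate 3 (81.8%, background 41.9%) and 1 was lower (4.5%, background 12.8%), with a median of 1.19 against 0.29. Without the filter, 2 of the 61 genes above 0 were higher in replicate 2 than in replicate 1 (3.28%, against 18.3% of all genes above 0) and 3 lower (against 14.9%). In replicate 3 against replicate 1, 33 were higher (54.1%, against 19.5%) and 0 lower (against 15.9%), and 11 of the 18 above were among the 33. Of the 10 histone genes at 1 FPKM or more in every library, 2 were called higher in replicate 2 than in replicate 1 (20%, against 40.2% of the 9648 such genes). In this contrast 1 of the 10 was called lower, against 1016 of the 9648. Of the 10 differences 4 were above 0, with a median of -0.12 against 0.28. In replicate 3 against replicate 1, 7 of the 10 were called higher (70%, against 44.3%) and 1 lower (against 1028 of the 9648), with a median of 1.07 against 0.33. The 4 genes higher in replicate 2 than in replicate 1 became 1 without ROCK2 KD replicate 2 or without Scr shRNA replicate 2, where the share of all genes higher fell too, to 24.7% and 27.5%. The 2 lower ones became 4 without Scr shRNA replicate 2 (against 8.99% of all genes lower), and the 1 gene lower in replicate 3 than in replicate 1, HIST2H4B, was no longer called without ROCK2 KD replicate 1 or without Scr shRNA replicate 3. The median over all genes depends on the scaling: it was 0.71 and 0.70 for these contrasts without scaling and -0.03 and -0.02 with a median ratio, so the members are best read against it. Of the tested genes, HIST1H1C stood lowest in replicate 1 relative to the others on this scale, with 13.6 and 13.3 FPKM against 41.0 to 87.3, and differed by 1.33 ± 0.17 between replicates 2 and 1 (adjusted p = 0.00108) and by 2.11 ± 0.17 between replicates 3 and 1 (adjusted p = 0.000272). HIST1H2BJ, with 1.22 and 1.87 FPKM in replicate 1 and 4.11 to 9.23 in the others, and HIST1H3C, with 0.119 and 0.115 against 0.576 to 2.31, were also lowest there. Without the filter and with a pseudocount of 0.1, replicate 1 lay below the mean of the others by more for HIST1H3C (-2.24), HIST1H3I (-2.20) and HIST1H1B (-2.15) than for HIST1H1C (-1.77).

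HIST2H4B and HIST1H2BN went the other way. HIST2H4B, an H4 gene of the HIST2 cluster, had 12.3 and 7.63 FPKM in replicate 1, 2.25 and 4.48 in replicate 2 and 7.92 and 5.32 in replicate 3. It was lower in replicate 2 than in replicate 1 by 1.80 on the log2 scale (adjusted p = 0.0029), and all of its windows occur elsewhere in the genome. After scaling, both replicate 1 libraries of HIST2H4B and of the H2B gene HIST1H2BN lay above both of replicate 3. This held for 2 of the 61 histone genes above 0, against 6073 of all 18785 genes above 0. HIST1H2BN stood at 1.98 and 2.71 FPKM in replicate 1, 0.599 and 1.57 in replicate 2 and 2.63 and 2.39 in replicate 3. Its difference of replicate 3 from replicate 1 was -0.26 and was not called (adjusted p = 0.271). Both genes are annotated with a long or spliced transcript.

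**Figure D4:**
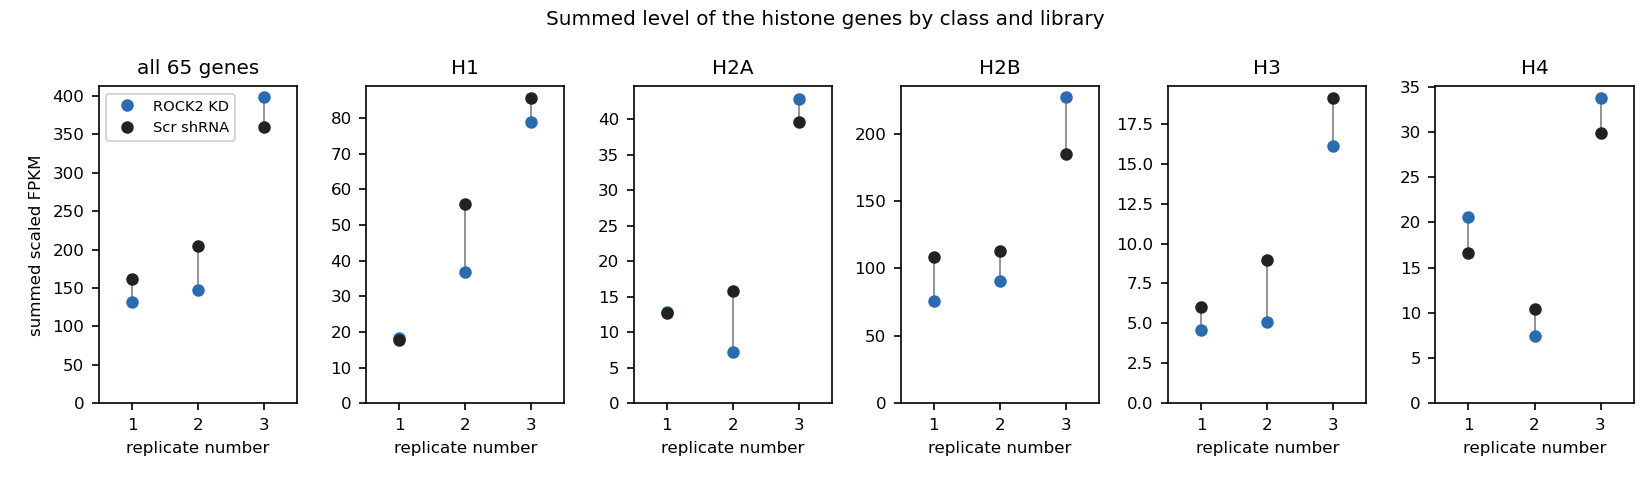
Summed scaled FPKM of all 65 histone genes and of each class, by replicate number, with blue points for ROCK2 KD, black points for Scr shRNA and a grey line joining the 2 libraries of a number. Every panel is highest in replicate 3, H1 is lowest in replicate 1 and H4 is lowest in replicate 2.

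Summed over the 65 genes and averaged over the 2 libraries of a number, the scaled FPKM was 147, 176 and 379 in replicates 1, 2 and 3. Replicate 3 was 2.16-fold above replicate 2 and 2.58-fold above replicate 1. Without HIST1H2BK and HIST1H1C the other 63 genes summed to 59.4, 48.8 and 142, and replicate 3 was 2.90-fold above replicate 2. By class, the sums of the ROCK2 KD and Scr shRNA libraries were 18.2 and 17.8 in replicate 1, 36.8 and 56.0 in replicate 2 and 78.9 and 85.6 in replicate 3 for H1. In the same order, the H2A genes summed to 12.9 and 12.7, to 7.3 and 15.9, and to 42.9 and 39.6. The H2B genes summed to 75.9 and 109, to 90.7 and 113, and to 228 and 185. The H3 genes summed to 4.6 and 6.0, to 5.1 and 8.9, and to 16.1 and 19.1, and the H4 genes to 20.7 and 16.6, to 7.4 and 10.4, and to 33.7 and 29.9. Both sums of replicate 3 lay above the other 4 in each of the 5 classes. Short single-exon genes had a median difference of replicate 3 from replicate 2 of 1.09 over 11 tested genes and long or spliced genes one of 0.88 over 10. Over all such genes above 0, fitted without the filter, the medians were 0.78 and 0.81 with a pseudocount of 1 and 1.61 and 1.10 with a pseudocount of 0.1, so their order depends on the pseudocount.

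Genes that transcribe and process histone mRNA were examined beside the histone genes. SLBP, which binds the stem-loop, stood between 80.4 and 128 FPKM and differed by -0.05 ± 0.10 between ROCK2 KD and Scr shRNA and by -0.03 ± 0.12 between replicates 3 and 2. NPAT, the transcriptional coactivator of histone genes, stood between 8.12 and 12.8 FPKM, with differences of 0.02 ± 0.11 and 0.01 ± 0.13. The U7 snRNP proteins LSM10 and LSM11 differed by 0.32 ± 0.12 and -0.17 ± 0.14 between replicates 3 and 2, neither at an adjusted p under 0.05. CASP8AP2, which is needed for histone pre-mRNA processing, was at 7.36, 8.36 and 5.48 FPKM in ROCK2 KD and 11.4, 9.18 and 6.27 in Scr shRNA, lower in each pair (-0.30 ± 0.13, adjusted p = 0.896). Of the 33 tested genes of histone mRNA processing and transcription, 0 passed in ROCK2 KD, and 2 were higher and 1 lower in replicate 3 than in replicate 2, with a median of 0.00. The higher ones were SNRPE (1.28, adjusted p = 0.00212) and SNRPG (0.70, adjusted p = 0.0186), which encode Sm proteins of snRNPs. The lower one was NELFE, a subunit of the negative elongation factor, at 6.90 and 6.76 FPKM in replicate 3 against 44.3 and 48.9 in replicate 2 (-2.51, adjusted p = 4.50e-05). In ROCK2 KD replicate 3 NELFE was one of 125 values written with more than 7 digits. The Scr shRNA library of that number held 122 such values and the other 4 libraries 11 to 15. No histone gene had such a value, and the part of this difference between the tables in the result of NELFE was not tested.

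Genes of S phase were described beside the histone genes because histone mRNA is made then. Of 24 such genes, all tested, 1 (CDT1) was higher and 0 lower in replicate 3 than in replicate 2, with a median of -0.12. Between replicates 2 and 1, 19 of them were higher in replicate 2, against 38.3% of all genes tested. In ROCK2 KD, 21 of the 24 had a fitted difference below 0 with a median of -0.10, and none passed. The largest fall was that of CDT1, a licensing factor of replication origins, at 11.6, 13.2 and 26.1 FPKM against 16.0, 21.1 and 33.2 (-0.48 ± 0.11, adjusted p = 0.752). Of 7 genes around cyclin E-CDK2, 1 was higher in replicate 3 than in replicate 2, CDKN1A, an inhibitor of CDK2 (0.65 ± 0.15, adjusted p = 0.0493). Of 19 histone chaperones 0 were higher and 1 lower, DAXX, a chaperone of histone H3.3 (-2.34, adjusted p = 6.95e-05), with a median of -0.13. TONSL had their largest fitted fall in ROCK2 KD (-0.50 ± 0.18, adjusted p = 0.866). None of the 7 or the 19 passed in ROCK2 KD.

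The replication-independent histone variants, which lie outside the clusters and are mostly polyadenylated, gave a mixed picture. Of 9 tested, 3 were higher and 1 lower in replicate 3 than in replicate 2, with a median of 0.30. H2AFX, whose transcript can end either at a stem-loop or in a poly(A) tail, had 157 and 191 FPKM in replicate 3 and 31.6 to 90.4 in the others (1.47 ± 0.22, adjusted p = 0.0102). H1FX, a linker histone variant, had 23.4 and 19.5 FPKM in replicate 3 against 3.93 and 6.25 in replicate 2, but 21.6 and 21.8 in replicate 1. H3F3C, which encodes a variant of histone H3, ran opposite, with 27.1 and 25.4 FPKM in replicate 2 against 9.27 and 8.34 in replicate 3 (-1.40 ± 0.14, adjusted p = 0.00138). In ROCK2 KD none of the 9 passed, and 7 had a fitted difference above 0.

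**Figure D5:**
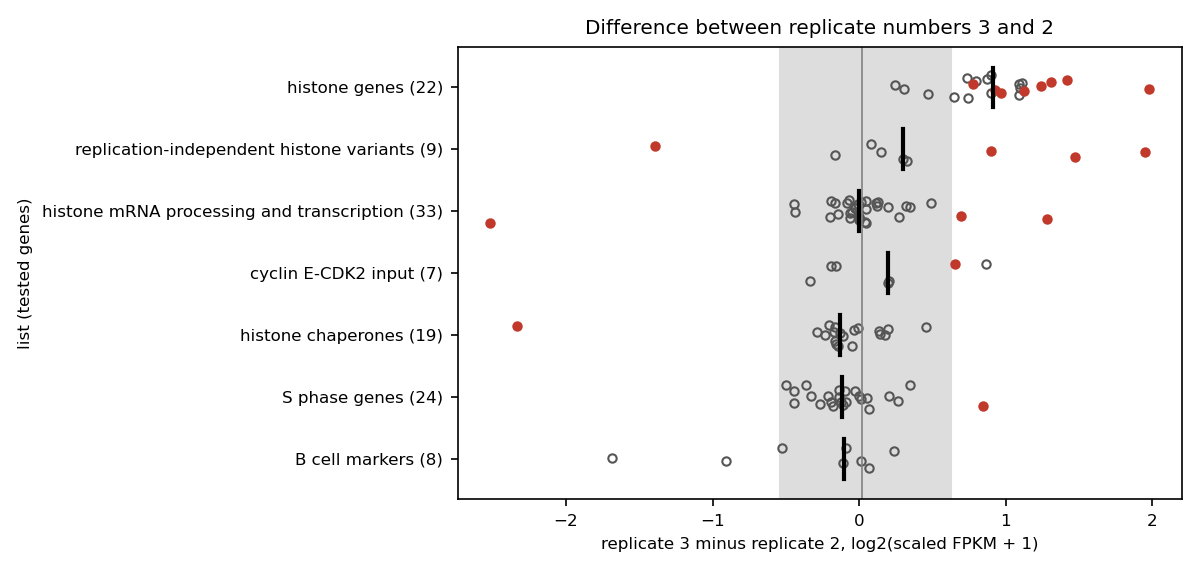
Replicate 3 minus replicate 2 on the log2(scaled FPKM + 1) scale for each tested gene of the histone clusters and of 6 comparison lists, with red filled circles for an adjusted p under 0.05, open circles for the others and black bars for medians. The grey band spans the middle 90% of all 10526 tested genes. All 22 histone genes lie right of 0 with a median of 0.91, while the medians of the processing, chaperone and S phase lists lie between -0.13 and 0.00.

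Other RNAs were examined for the same difference. Genes whose symbols start with RPL or RPS, most of them short polyadenylated ribosomal protein mRNAs, had a median difference of 0.24 between replicates 3 and 2. Of 108 tested, 29 were higher and 10 lower in replicate 3, against 3.5% and 2.81% of all genes tested. Of 13 tested neighbours that start within the HIST1 span on chromosome 6 and are no histone genes, 0 were higher and 0 lower in replicate 3. Small nucleolar RNAs showed no common pattern: of 13 tested H/ACA RNAs 0 were higher and 1 lower, and the summed scaled FPKM of the C/D box RNAs was 47.2 and 1205 in replicate 2 and 553 and 84.2 in replicate 3. The RNA components RMRP, of RNase MRP, and RPPH1, of RNase P, which are made by RNA polymerase III and have no poly(A) tail, were chosen after their values were seen. RMRP had 76.2 and 72.7 FPKM in replicate 3, 1.86 and 7.52 in replicate 2 and 5.56 and 34.4 in replicate 1 (3.96 between replicates 3 and 2, adjusted p = 0.00431). RPPH1 had 41.6 and 28.1 FPKM in replicate 3 and 0.611 to 13.9 in the other libraries (4.14, adjusted p = 0.00919). The part of RNA selection or library making in the difference between replicate numbers was not tested.

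RefSeq promoters of GRCh38.p14, 250 bases before to 50 after the start, were matched for 57 of the 65 genes and searched on both strands for the TATA motif TATAAA, the box CCAAT and the octamer ATTTGCAT, to which POU2F1 can bind. TATAAA occurred in 36 of the 57 (63.2%), against 11.5% of all 35116 promoters of this length, CCAAT in 49 (86.0%) against 34.6%, and ATTTGCAT in 24 (42.1%) against 1.77%. CCAAT was in every H1, H2A, H2B and H3 promoter and in 3 of the 11 H4 promoters. ATTTGCAT was in 10 of 13 H2A and 13 of 17 H2B promoters, in 1 of 10 of H3 and in none of H1 or H4. For 4 of the genes RefSeq gave 2 windows, of which the first listed was used. The H3 match, in HIST1H3D, is in such a window, which is the same as that of HIST1H2AD and so counted for both, and the other window of HIST1H3D does not hold ATTTGCAT but holds TATAAA. In HIST1H3E, TATAAA is in the first window only. The 250 bases before the start are shown for the most abundant H2B, H1, H2A and H4 genes, leaving out the copied HIST2H4B, with any of the 3 motifs, on either strand, in capitals.
HIST1H2BK: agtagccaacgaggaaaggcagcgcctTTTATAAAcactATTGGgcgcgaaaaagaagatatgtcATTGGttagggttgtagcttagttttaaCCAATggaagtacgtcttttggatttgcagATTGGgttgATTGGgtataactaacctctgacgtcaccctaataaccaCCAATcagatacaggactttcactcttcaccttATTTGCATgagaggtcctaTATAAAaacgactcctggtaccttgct
HIST1H1C: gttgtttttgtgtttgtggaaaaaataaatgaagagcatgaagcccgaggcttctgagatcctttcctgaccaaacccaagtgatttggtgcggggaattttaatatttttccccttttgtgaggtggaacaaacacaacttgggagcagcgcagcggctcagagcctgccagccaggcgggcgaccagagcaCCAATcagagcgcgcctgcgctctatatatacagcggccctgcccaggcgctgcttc
HIST1H2AC: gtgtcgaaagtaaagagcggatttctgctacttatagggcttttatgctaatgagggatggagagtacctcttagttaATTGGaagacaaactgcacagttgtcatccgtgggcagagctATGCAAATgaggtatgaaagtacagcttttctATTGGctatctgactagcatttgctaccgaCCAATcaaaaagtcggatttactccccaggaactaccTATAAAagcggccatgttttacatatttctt
HIST1H4H: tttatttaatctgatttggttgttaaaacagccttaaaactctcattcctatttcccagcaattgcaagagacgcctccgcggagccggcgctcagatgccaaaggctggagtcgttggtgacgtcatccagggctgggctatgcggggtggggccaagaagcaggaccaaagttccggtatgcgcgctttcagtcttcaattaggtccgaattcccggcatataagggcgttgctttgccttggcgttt
They lay at chr6:27146859-27147108 (minus strand), chr6:26056471-26056720 (minus strand), chr6:26123922-26124171 (plus strand) and chr6:26285535-26285784 (minus strand) of GRCh38.p14. HIST1H2BK and HIST1H2AC held all 3 motifs, HIST1H1C held CCAAT alone and HIST1H4H held none. All 4 genes were higher in replicate 3 than in replicate 2, by 0.96, 0.78, 1.98 and 1.11 in this order, the last not at an adjusted p under 0.05. A match is a description of letters and no evidence of a bound factor.

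Many H2A and H2B genes start back to back. In the GENCODE annotation 9 pairs of an H2A and an H2B gene began 170 to 251 bases apart on opposite strands, a feature that was examined after the values were seen. By the RefSeq starts 2 more pairs lay 233 and 223 bases apart, HIST1H2AE with HIST1H2BG and HIST1H2AD with HIST1H2BF, whose H2B genes had no match in GENCODE. Partners could differ widely in level. HIST1H2BK had a mean of 109 FPKM and its partner HIST1H2AH, 251 bases away, 0.700 FPKM. HIST1H2AC had 7.74 FPKM and HIST1H2BC, 219 bases away, 2.62. Both partners of 4 of these 11 pairs were tested. Replicate 3 exceeded replicate 2 by 1.98 for HIST1H2AC and 1.09 for HIST1H2BC, by 1.24 for HIST1H2AM and 1.31 for HIST1H2BO, by 1.09 for HIST1H2AG and 0.74 for HIST1H2BJ, and by 0.74 for HIST1H2AE and 0.90 for HIST1H2BG. Between ROCK2 KD and Scr shRNA the partners differed by -0.25 and 0.18, by -0.22 and -0.33, by -0.04 and 0.06, and by -0.29 and -0.45.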

How the data were processed

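Total RNA of U2932 cells was sequenced as 6 Nextera libraries. Per the study's methods, the authors aligned 50-bp paired reads to hg19 with STAR, computed FPKM with Cufflinks and, for their own test, corrected counts for a replicate-based batch effect with ComBat before limma. The deposited values used here are FPKM of 20667 gene symbols per library, normalized by the authors for length and mapped fragments. The gene annotation they used was not given in the sources used here. The histone genes and comparison lists were chosen with earlier results of these data known.

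Library scaling factors were means of log ratios after trimming (0.3 of ratios, 0.05 of levels). The 10526 genes that reached 1 FPKM in 3 or more libraries were fitted on log2(scaled FPKM + 1), a pseudocount of 1, with limma 3.58.1 in R 4.3.3. The model held the condition and the replicate number and a trend of variance on mean level, with adjustment by Benjamini-Hochberg over all genes tested (threshold 0.05). The labels number both groups alike, and deviations from the group mean correlated across genes between libraries of one number (0.855, 0.785 and 0.742). The rule for named genes covered ROCK2, the 3 most abundant genes of each class, the largest changes with one direction in all pairs, the extremes of replicate 1 against the others, and the largest changes of ROCK2 KD in each list, of which not all are described. Others are said to be chosen after their values were seen or belong to a result described. Alternatives covered pseudocount, filter, scaling, trend, block, ComBat (written out in R, without the condition) and left-out libraries. The fits were tested on simulated data. Annotation came from GENCODE 44 lifted to GRCh37, promoters from RefSeq. Python 3.11.15 with pandas 2.3.3, numpy 2.4.6 and matplotlib 3.10.9 was used. The study's methods state an approximate range of fragments per sample, and the depth of each library is unknown from FPKM. Protein sequences were not analysed here.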

Additional observations from a re-analysis of the deposited data

How the results depend on the processing

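ROCK2 KD against Scr shRNA called 0 of all genes and 0 histone genes in the model with the replicate block and also without the block (0 and 0, with 26 genes at an unadjusted p under 0.05 against 576). Leaving out one replicate called 0 to 14 genes and 0 histone genes. ComBat followed by limma, whose p-values come out too small, called 294 genes and 2 histone genes, and this was the one setting to call a histone gene. The median over the tested histone genes was below 0 under every alternative, from -0.39 with a pseudocount of 0.1 to -0.07 with no filter. Fitted differences of single genes turned sign with 1 pair left out. Their ranges were -0.59 to 0.20 for HIST1H2AC, -0.30 to 0.31 for HIST1H2AG, -0.48 to 0.018 for HIST1H2AI, -0.12 to 0.079 for HIST1H2AJ, -0.065 to 0.58 for HIST1H2BC, -0.15 to 0.29 for HIST1H2BJ, -0.41 to 0.031 for HIST1H2BK, -0.11 to 0.14 for HIST1H3J, -0.71 to 0.20 for HIST1H4H and -0.13 to 0.54 for HIST2H4B. HIST1H2AJ, near 0, also turned with a pseudocount of 0.1 (0.047, and 0.047 without the filter) and with median ratio scaling (0.0057).

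Between replicates 3 and 2, 8 histone genes were higher, 5 without scaling (all genes 2.38%), 24 of 56 with a filter of 0.1 FPKM (42.9%, all genes 2.65%), 3 of 61 with no filter (4.92%, all genes 0.25%) and 2 of 61 with no filter and a pseudocount of 0.1 (3.28%, all genes 0.314%), a setting chosen after seeing the data. Of the 8, 7 were among the 24 and 0 among the 3 or the 2, which were HIST2H3D, HIST1H4E and HIST1H2AL, and HIST2H3D and HIST1H1E. Leaving out 1 library gave 1 to 17 (all genes 0.627% to 4.96%). None was lower under any alternative. Between replicates 3 and 1, 18 were higher and 1 lower, 42 higher with the filter of 0.1 FPKM (75%, all genes 33%), 33 higher and 0 lower with no filter (54.1%, all genes 19.5%), 30 and 0 with no filter and a pseudocount of 0.1 (49.2%, all genes 20.5%), and 0 lower without scaling. Leaving out 1 library gave 12 to 18 higher (all genes 30.4% to 40.6%) and 0 to 1 lower (9.23% to 12%). Between replicates 2 and 1, 4 were higher and 2 lower, 8 higher without scaling (all genes 68.7%), and 2 higher with median ratio scaling (all genes 20.8%), with no filter (18.3%), and with no filter and a pseudocount of 0.1 (19.1%). Leaving out 1 library gave 1 to 4 higher (all genes 24.7% to 37.6%) and 2 to 4 lower (5.66% to 12.4%). The causes were not tested. With a library left out, the lone library of a replicate number is assumed to vary like the others. FPKM hold no depth, so low values carry an unknown counting error.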
